A study of Homo sapiens with 15 samples.

Results

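Expression was followed for 36 genes of homologous recombination, the Fanconi anaemia pathway, mismatch recognition and checkpoint signalling, taken from a list of names. The list was chosen with earlier results of these data known, so shares of members set beside all genes are not independent support. Of these, 32 were matched to a probe set that reads 1 gene, out of 19775 genes on the array, and where several probe sets read a gene the brightest on average was used. BRCA2, RBBP8, FANCA and FANCD2 were not analysed here. In the fermentation arrays 28 of the 32 had enough signal to be tested, set as log2 5 or more on 4 or more of these 12 arrays. XRCC3 lay under log2 5 in all 15 arrays, and RAD54L, FANCB and FANCM reached it in 5, 5 and 2 arrays, so these 4 genes were not tested. Levels below are log2 values of single arrays, which compare 1 gene between arrays and not 1 gene with another.

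The cells were Caco-2, a line from a human colon carcinoma, used undifferentiated and treated for 24 h in serum-free medium, with 1 array for each of 15 treatments. Fluid from a model of the colon was added at 10% by volume after its bacteria had been spun out. It came from simulations of 48 h with 0%, 1% or 2% polydextrose, a glucose polymer that gut bacteria ferment, and was taken from vessel 1 (ascending colon), vessel 2 (transverse), vessel 3 (descending) and vessel 4 (sigmoid colon and rectum). Other cells received 5 mM butyrate, a bacterial fatty acid that inhibits histone deacetylases, 100 mM NaCl, or medium alone. Each concentration was 1 simulation with no repeat, so a difference between simulations cannot be told apart from the concentration, and p-values measure only the spread between these 12 arrays.

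Homologous recombination mends a broken chromosome by copying the sister chromatid, so it works in the S and G2 phases of the cell cycle. The broken ends are sensed by the complex of NBN and RAD50, cut back by nucleases such as EXO1, and made ready for strand exchange with the help of BRCA1, BARD1 and PALB2. Joined molecules are then taken apart by the BLM helicase with RMI1 and RMI2, or cut by GEN1 or by MUS81 with EME1. The Fanconi genes unhook strands that are crosslinked to each other. Many of these genes are known to be switched on by E2F transcription factors as cells enter S phase, and deacetylase inhibitors are known to lower several of them in carcinoma cells.

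The start regions of members that fell with 2% polydextrose are shown because E2F sites are the best known element shared by genes of this kind. RefSeq windows on GRCh38.p14, from 250 bases before to 50 after a start listed for the gene, were matched for 28 of the 32 genes; NBN, RAD54B, RMI2 and FANCI had none in the table. Where the table holds several windows for a gene, as for 9 of the 28, the one with the lowest coordinates was used. An E2F-type motif was counted where TTTCCCGC, TTTGGCGC, TTTCGCGC, TTTGCGCC, TTCCCGCC or TTGGCGCC stood on either strand, the first and the fifth of which overlap each other. Such a motif stood in 11 of 28 windows of the repair genes (39.3%), against 10.7% of 7227 windows of genes tested and 8.31% of 15842 windows of protein-coding genes. Among the members that later fell with 2% fluid it stood in 5 of 10 windows, and among tested members that did not pass in 4 of 14. The letters are a description of the window and not a measure of binding. The 4 windows below belong to the members with the smallest p among those that fell and hold the motif, read 5′ to 3′ in the direction of the gene, with the motif in capitals.
POLQ, chr3:121545939-121546238, minus strand: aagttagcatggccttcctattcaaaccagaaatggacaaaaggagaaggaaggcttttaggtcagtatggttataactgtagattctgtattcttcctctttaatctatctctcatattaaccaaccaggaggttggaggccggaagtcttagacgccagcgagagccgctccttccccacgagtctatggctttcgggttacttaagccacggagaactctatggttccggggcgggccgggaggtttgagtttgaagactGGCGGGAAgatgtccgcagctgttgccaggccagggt
RAD51AP1, chr12:4538640-4538939, plus strand: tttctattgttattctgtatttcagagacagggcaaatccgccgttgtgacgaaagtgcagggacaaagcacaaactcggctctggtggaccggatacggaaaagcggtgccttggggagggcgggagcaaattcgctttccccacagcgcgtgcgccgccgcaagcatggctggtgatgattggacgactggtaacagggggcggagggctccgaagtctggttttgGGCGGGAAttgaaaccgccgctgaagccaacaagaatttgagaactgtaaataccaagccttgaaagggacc
BRIP1, chr17:61863479-61863778, minus strand: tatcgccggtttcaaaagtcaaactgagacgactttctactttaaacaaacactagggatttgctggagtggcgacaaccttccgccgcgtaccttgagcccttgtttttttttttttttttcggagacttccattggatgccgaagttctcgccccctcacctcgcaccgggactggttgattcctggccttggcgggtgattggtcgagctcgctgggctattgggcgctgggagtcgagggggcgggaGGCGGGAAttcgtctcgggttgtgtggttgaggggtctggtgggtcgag
GEN1, chr2:17753619-17753918, plus strand: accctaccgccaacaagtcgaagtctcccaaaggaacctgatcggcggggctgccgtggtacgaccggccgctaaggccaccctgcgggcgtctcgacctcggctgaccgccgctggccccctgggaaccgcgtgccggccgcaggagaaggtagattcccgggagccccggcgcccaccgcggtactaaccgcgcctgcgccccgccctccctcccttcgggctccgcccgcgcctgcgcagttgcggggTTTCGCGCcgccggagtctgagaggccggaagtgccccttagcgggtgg

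Counted from the start on which each window is set, the motif spans bases 14 to 21 in POLQ and bases 2 to 9 in BRIP1 and GEN1, and ends 15 bases before the start in RAD51AP1. GEN1 has 2 windows in the table, and its annotated gene start lies upstream of both. The 3 windows with GGCGGGAA carry TTCCCGCC on the other strand, while GEN1 carries TTTCGCGC. A CCAAT box, searched on both strands, stood in 15 of the 28 windows (53.6%), against 37.6% of the windows of tested genes. The cell cycle element known as CHR, searched as TTTGAA or TTTAAA on both strands, stood in 4 of 28 (14.3%), against 16.0%. It stood in 3 of 10 windows of members that fell and in 1 of 14 of tested members that did not pass, and the CCAAT box in 6 of 10 and 6 of 14.

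The 15 arrays were alike in signal. The epithelial genes EPCAM, CDH1, KRT8, KRT18 and KRT19 were at log2 12.68 or more in every array, while CDX1, CDX2 and VIL1 lay under log2 5 in all 15. CEACAM5 varied between treatments, at 4.79 with butyrate, 1.39 with NaCl, 2.23 in medium and 3.66 to 5.63 with the fluids. All 5 leukocyte markers and 6 of 7 fibroblast markers also lay under log2 5, the exception being COL1A1, at 8.13 with butyrate, 3.29 with NaCl and 1.37 in medium, and 5.26 to 8.26 with the fluids. RNA integrity was read from ACTB as its 3′ signal minus its 5′ signal in log2, which is higher where RNA is less intact. Vessel 1 gave the highest value at each concentration (0.726, 0.924 and 0.620 for 0%, 1% and 2% fluid), and vessels 2 to 4 gave 0.366 to 0.636. It was 0.585 with butyrate, 0.641 with NaCl and 0.951 in medium. Lower values in bulk RNA cannot tell fewer cells that use a gene from less RNA per cell.

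Medium alone gave the highest of the 15 values for 20 of the 28 tested members. Butyrate gave the lowest for 11 and NaCl for 9. The same counts were not made over all tested genes, so they do not set the members apart. Over the 28 members the median level was 7.50 with 0% fluid, 7.37 with 1% and 6.96 with 2%, and 6.73 with butyrate, 7.26 with NaCl and 8.19 in medium. The map of all members by array shows these columns side by side, with the blue ends at butyrate, NaCl and 2% fluid.

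**Figure D1:**
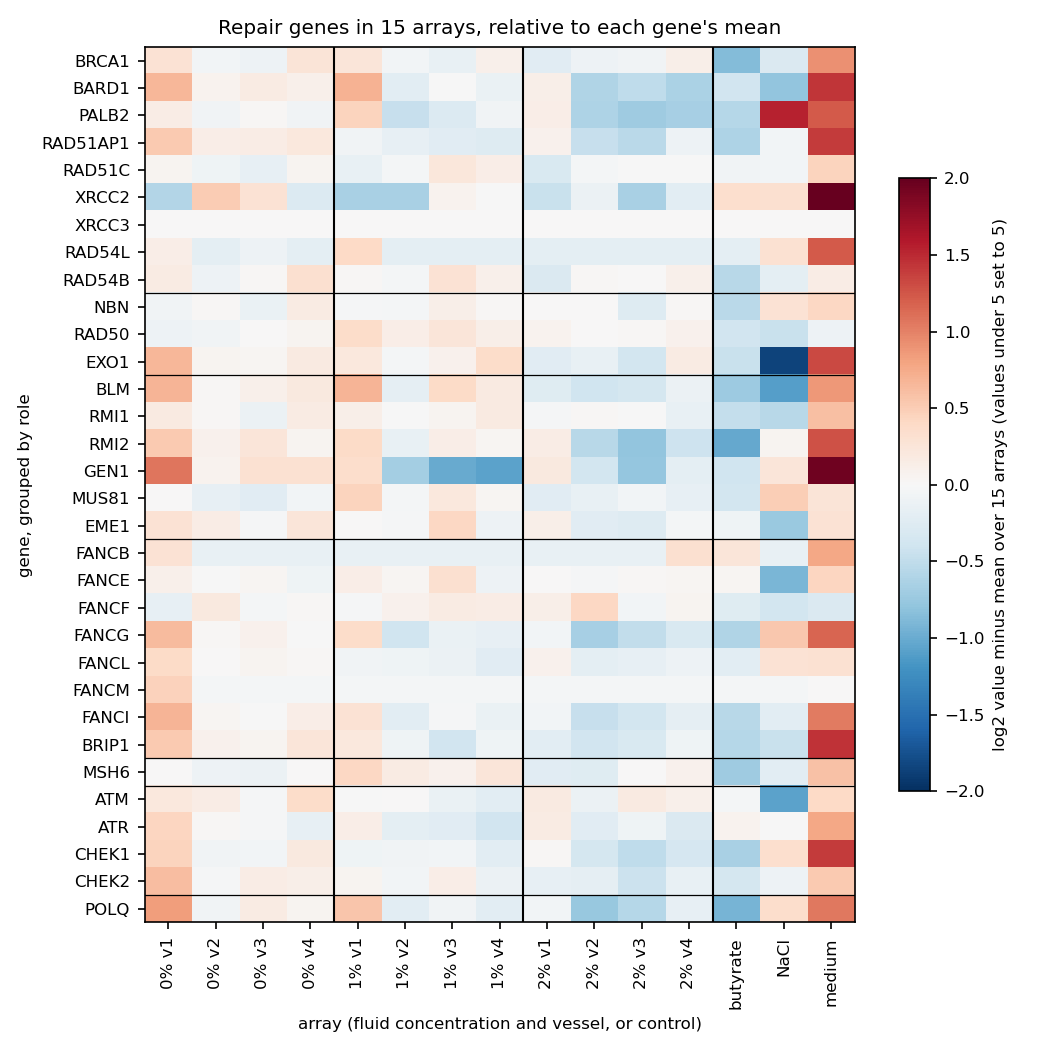
Each row is 1 of the 32 repair genes in the order of their roles and each column 1 array (v1 to v4 are vessels 1 to 4); colour is the log2 value minus the gene's mean over 15 arrays, red above and blue below, with values under log2 5 set to 5. The medium column is the reddest, holding the highest value of 20 of 28 tested genes, and butyrate holds the lowest of 11. Such counts were not made over all genes.

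The comparison of fluid with 2% and with 0% polydextrose asks what fermented polydextrose changed beyond the fluid itself. Of 28 members tested, 12 fell and 0 rose, against 11.2% of all 8737 genes that fell and 9.65% that rose. Because the members were chosen with earlier results of these data known, the share that fell is not an independent test. The median log2 difference was -0.31 for the members and -0.01 for all genes, and 25 of 28 members lay below 0, against 52.2% of all genes. The falls were small, 1.34-fold for CHEK1 to 1.65-fold for GEN1. Each of the 12 genes was lower with 2% fluid in 4 of 4 vessels. This is not separate support, since the test used these same differences. ATR, EME1, EXO1 and FANCL, which did not pass, were also lower in 4 of 4.

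Among the genes of strand exchange and its mediators, 3 of 7 fell. BARD1, the partner of BRCA1 in a ubiquitin ligase, was at 7.49, 6.89, 6.98 and 6.92 with 0% fluid, 7.52, 6.60, 6.82 and 6.68 with 1% and 6.93, 6.22, 6.31 and 6.19 with 2% in vessels 1 to 4. The gap between 2% and 0% fluid was nearly the same in each vessel, from -0.55 to -0.73, with the level of vessel 1 above the others at each concentration. BARD1 fell by 0.66 ± 0.07 (log2 ± SE, adjusted p = 0.00124), to 6.41 ± 0.35 with 2% against 7.07 ± 0.28 with 0% (SD, n = 4 each).

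RAD51AP1, which helps strands pair, was at 9.35, 8.95, 8.98 and 9.03 with 0% fluid, 8.76, 8.66, 8.59 and 8.56 with 1% and 8.90, 8.36, 8.29 and 8.73 with 2%. All 4 arrays with 2% fluid lay below all 4 with 0%, and the difference was -0.51 ± 0.10 (adjusted p = 0.00942). PALB2, which links BRCA1 to BRCA2, was at 6.51, 6.29, 6.38 and 6.28 with 0% fluid, 6.80, 5.90, 6.08 and 6.28 with 1% and 6.48, 5.74, 5.64 and 5.69 with 2%. In vessel 1 it differed by -0.03 between 2% and 0%, while in vessels 2 to 4 every array with 2% lay below every array with 0%. Its fall over all vessels was -0.48 ± 0.12 (adjusted p = 0.0271).

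BRCA1 itself did not pass with its brightest probe set. Its levels were 8.42, 8.09, 8.03 and 8.40 with 0% fluid, 8.37, 8.08, 7.98 and 8.24 with 1% and 7.91, 8.04, 8.06 and 8.25 with 2%, which overlap, and the difference of -0.17 ± 0.10 (adjusted p = 0.253) came mostly from vessel 1, at -0.51, against -0.15 to 0.04 in the others. As the mean of both its probe sets, of which the other did not reach the signal limit, BRCA1 passed, at -0.30 between 2% and 0% (adjusted p = 0.0222) and 0.22 between vessel 1 and the later vessels (adjusted p = 0.0349). XRCC2, which assists strand exchange, was at 5.06, 6.16, 5.94 and 5.38 with 0% fluid, 4.78, 4.77, 5.72 and 5.64 with 1% and 5.20, 5.53, 4.95 and 5.43 with 2%, near the limit of log2 5, and did not pass (-0.36 ± 0.27). Its probe set is of a type that may also bind related transcripts. RAD51C, which acts in the same step, and the translocase RAD54B ranged over 8.70 to 9.23 and 6.33 to 6.93 in the 12 arrays, with differences of -0.05 and -0.13 that did not pass.

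None of the 3 genes of break sensing and end resection fell. RAD50, a subunit of the complex that tethers broken ends, was at 9.85, 9.88, 9.96 and 10.00 with 0% fluid, 10.31, 10.08, 10.20 and 10.07 with 1% and 10.03, 9.96, 9.98 and 10.05 with 2%. Its values with 2% and 0% overlapped, though 2% was higher in each vessel, and they differed by 0.08 ± 0.07 (adjusted p = 0.459). Every array with 1% fluid lay above every array with 0% or 2%. NBN, the partner of RAD50, ranged from 9.04 to 9.46 and differed by -0.05 ± 0.08 (adjusted p = 0.691). Its probe sets disagree: of 4 others, 3 had enough signal, and 1 of these gave -0.43 between 2% and 0% (adjusted p = 0.0332) and 0.54 between vessel 1 and the later vessels (adjusted p = 0.00644), in a fit over all probe sets with enough signal. The exonuclease EXO1 was at 8.24, 7.62, 7.61 and 7.76 with 0% fluid, 7.79, 7.54, 7.66 and 7.94 with 1% and 7.34, 7.42, 7.20 and 7.73 with 2%, with its largest difference in vessel 1 (-0.90) and its smallest in vessel 4 (-0.02), and missed the threshold (-0.38 ± 0.13, adjusted p = 0.0636).

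Of the 6 genes that dissolve or cut joined DNA molecules, 3 fell, and they came from both routes. GEN1, a nuclease that cuts Holliday junctions, was at 7.15, 6.15, 6.38 and 6.39 with 0% fluid, 6.44, 5.40, 5.06 and 4.99 with 1% and 6.27, 5.71, 5.30 and 5.89 with 2%. Its lowest values were with 1% fluid and not with 2%, and it had the largest difference of the members between 2% and 0%, at -0.72 ± 0.16 (adjusted p = 0.0155). RMI2, an accessory subunit of the BLM complex, was at 7.86, 7.42, 7.59 and 7.40 with 0% fluid, 7.73, 7.19, 7.47 and 7.38 with 1% and 7.49, 6.79, 6.55 and 6.93 with 2%, and fell most in vessel 3, where the difference was -1.04. Its difference over the vessels was -0.63 ± 0.11 (adjusted p = 0.00707).

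The helicase BLM was at 7.37, 6.72, 6.78 and 6.88 with 0% fluid, 7.37, 6.51, 7.07 and 6.87 with 1% and 6.44, 6.29, 6.33 and 6.57 with 2%. Its arrays with 2% fluid all lay below those with 0%, while 1% and 0% fluid overlapped (0.02, adjusted p = 0.946). The difference between 2% and 0% was -0.53 ± 0.13 (adjusted p = 0.0208). RMI1, the other subunit, did not pass, at 8.90 ± 0.08 with 2% against 9.00 ± 0.14 with 0% (SD, n = 4 each; adjusted p = 0.414). MUS81 and its partner EME1, which form the other junction nuclease, differed by -0.04 and -0.27 and did not pass (adjusted p = 0.816 and 0.175).

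In the Fanconi pathway 3 of 6 tested genes fell. FANCG, a subunit of the core complex that marks other Fanconi proteins, was at 7.88, 7.28, 7.33 and 7.25 with 0% fluid, 7.63, 6.86, 7.12 and 7.09 with 1% and 7.20, 6.59, 6.76 and 6.96 with 2%. The arrays with 2% and with 0% did not overlap, and the difference was -0.56 ± 0.08 (adjusted p = 0.00312). FANCI, one of the proteins that complex marks, was at 9.58, 8.95, 8.91 and 9.05 with 0% fluid, 9.20, 8.70, 8.89 and 8.77 with 1% and 8.86, 8.44, 8.55 and 8.73 with 2%, again without overlap between 2% and 0% (-0.47 ± 0.09, adjusted p = 0.00733).

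The helicase BRIP1, which works with BRCA1 and is also a Fanconi gene, was at 7.06, 6.63, 6.59 and 6.78 with 0% fluid, 6.74, 6.45, 6.15 and 6.45 with 1% and 6.32, 6.16, 6.23 and 6.45 with 2%. It stepped down in each vessel between 0% and 2%, by -0.34 to -0.74, and the difference over the vessels was -0.48 ± 0.09 (adjusted p = 0.0102). FANCL, the ubiquitin ligase of the core complex, was lower with 2% in 4 of 4 vessels but by little, at 10.27 ± 0.12 with 2% against 10.48 ± 0.18 with 0% (SD, n = 4 each; adjusted p = 0.0738). FANCE and FANCF, structural subunits of the same complex, differed by 0.003 and 0.13. FANCF had the highest difference of all 28 members and did not pass (adjusted p = 0.35).

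Of the 4 checkpoint kinases, the effector kinases CHEK1 and CHEK2 fell and the upstream kinases ATM and ATR did not pass. CHEK1, which ATR activates and which halts the cycle at damaged forks, was at 8.65, 8.14, 8.15 and 8.40 with 0% fluid, 8.13, 8.14, 8.16 and 7.99 with 1% and 8.24, 7.85, 7.71 and 7.87 with 2%. It fell by 0.42 ± 0.10 (adjusted p = 0.0231), with only vessel 1 of 2% overlapping the 0% range. CHEK2, which ATM activates, was at 6.04, 5.40, 5.57 and 5.54 with 0% fluid, 5.48, 5.38, 5.56 and 5.31 with 1% and 5.26, 5.25, 4.96 and 5.28 with 2%, with vessel 3 of 2% just under log2 5, and differed by -0.45 ± 0.12 (adjusted p = 0.0302). ATR differed by -0.17 ± 0.06 (adjusted p = 0.0792) and ATM by -0.09 ± 0.10 (adjusted p = 0.551).

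POLQ, the polymerase that joins ends through short matching stretches when recombination fails, was at 7.60, 6.69, 6.93 and 6.82 with 0% fluid, 7.31, 6.55, 6.69 and 6.56 with 1% and 6.72, 6.01, 6.20 and 6.60 with 2%. It fell in all 4 vessels, by -0.68 to -0.88 in vessels 1 to 3 and by -0.22 in vessel 4. The difference was -0.63 ± 0.11 (adjusted p = 0.00687). MSH6, which recognises mismatches, was at 7.09, 6.98, 6.96 and 7.09 with 0% fluid, 7.49, 7.25, 7.16 and 7.32 with 1% and 6.85, 6.84, 7.08 and 7.16 with 2%. It was highest with 1% fluid in every vessel, and 2% and 0% fluid overlapped (-0.05 ± 0.09, adjusted p = 0.759).

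**Figure D2:**
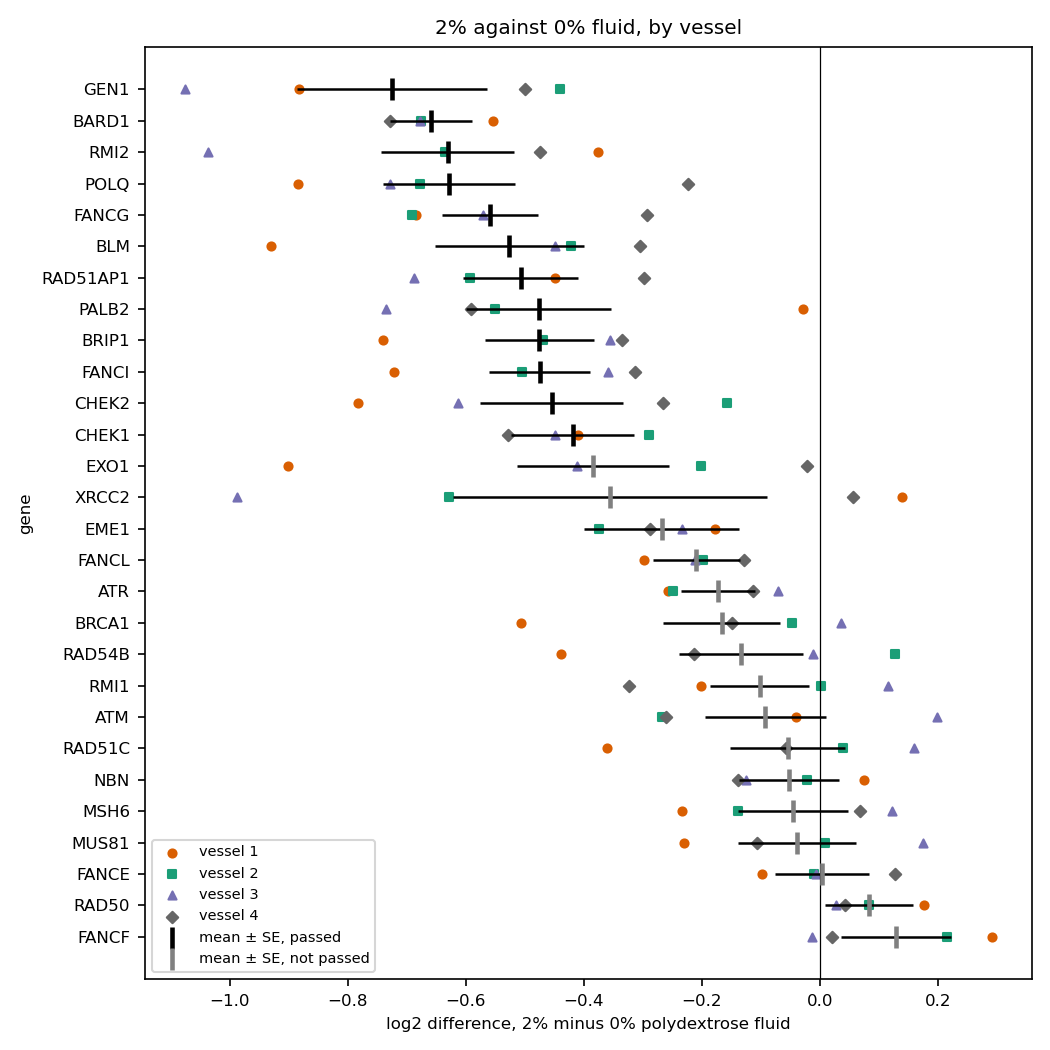
The x axis gives the log2 difference between 2% and 0% polydextrose fluid for each of 28 genes, with a coloured point for each vessel, a bar for the mean over 4 vessels and a line for its SE. The 12 genes that passed (black bars) have all 4 points left of 0, from GEN1 at -0.72 to CHEK1 at -0.42. So have ATR, EME1, EXO1 and FANCL, which did not pass, while RAD50 and FANCF lie to the right of 0.

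Among the 12 genes that fell, 6 have other probe sets, 10 in all. Of these 10, 5 probe sets of 3 genes had enough signal, and all 5 pointed down, 4 of them passing in a fit over all probe sets with enough signal. With each of the 12 fluid arrays left out in turn, BARD1, BRIP1, FANCG, FANCI, POLQ, RAD51AP1 and RMI2 passed every time (adjusted p up to 0.0444). The other 5 did not. Without vessel 3 of 2%, 7 of 28 members passed, and BLM, CHEK1, CHEK2, GEN1 and PALB2 were lost. The same 5 less BLM were lost without vessel 3 or vessel 4 of 0%. Calls over all genes dropped too, to 407 of 8709 that fell without vessel 3 of 2%, against 977 of 8737. BLM and PALB2 were lost without vessel 2 of 0%, CHEK1, CHEK2 and PALB2 without vessel 2 or 4 of 2%, and CHEK2 without vessel 1 of 2%. The adjusted p of a lost call was at most 0.104.

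Markers of dividing cells were also lower between 2% and 0% fluid. All 10 fell (median log2 difference -1.06), and their median level per array was 8.42 to 9.56 with 2% fluid against 9.49 to 10.04 with 0%. The part of cell division in the lower repair genes was not tested. ACTB 3′ minus 5′ values were lower with 2% than with 0% fluid in each vessel. With them as a covariate, added after the data were seen, 12 members passed, 11 of them the same. Of all 8737 genes 757 then fell and 707 rose. Among the members PALB2 was lost (adjusted p = 0.0556) and EME1 gained. Without the vessel block 0 members and 0 of all genes passed in limma. An unadjusted p under 0.05 was then found for 13 members and for 1952 of 8737 genes. Without the block and without vessel 1, a setting also added after the data were seen, 13 members fell, the 12 and FANCL. Of 8635 genes 1787 fell and 1515 rose in that fit.

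At 1% polydextrose 2 of 28 members fell and 0 rose, against 2.15% of all genes that fell and 2.63% that rose. The split of all genes depends on the scaling, with 188 that fell and 230 that rose as deposited, and 291 and 174 with the arrays centred on their median. GEN1 was lower by more than with 2% fluid, at -1.04 ± 0.16 against 0% (adjusted p = 0.0187), and in vessel 4 its level was 4.99. RAD51AP1 was at 8.64 ± 0.09 with 1% against 9.08 ± 0.19 with 0% (SD, n = 4 each), a difference of -0.44 ± 0.10 (adjusted p = 0.0408). Neither call held in every fit with 1 array left out. GEN1 was lost without vessel 2, 3 or 4 of 0% or vessel 3 or 4 of 1% (adjusted p up to 0.0774), and RAD51AP1 without any of these, vessel 1 or 2 of 1%, or vessel 2 or 4 of 2% (up to 0.145).

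The other members did not pass at 1%, and the median over the 28 was -0.11. The differences closest to the threshold were those of ATR (-0.24, adjusted p = 0.0643), BRIP1 (-0.32, 0.0802), RAD50 (0.24, 0.0887) and FANCG (-0.26, 0.0924), with RAD50 higher and the others lower. MSH6 and MUS81 were also higher with 1% than with 0%, at 0.27 and 0.27, without passing. Of 10 markers of dividing cells 5 fell at 1% and 0 rose, with a median of -0.60, against 2.15% of all genes that fell.

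Between 2% and 1% fluid no member passed in limma, as no gene did among the 8737 tested (0%). A total of 10 of 28 members had an unadjusted p under 0.05, beside 1608 of 8737 genes. The largest differences were those of BLM (-0.54 ± 0.13, adjusted p = 0.141), RMI2 (-0.50 ± 0.11, 0.141) and BARD1 (-0.49 ± 0.07, 0.107). Without vessel 1 of 0%, whose array enters only the estimate of spread and the vessel means, BARD1, BLM, PALB2 and RMI2 passed. Of 8709 genes 376 fell and 204 rose in that fit. The comparisons of concentrations share arrays, so they are not separate evidence.

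The 4 vessels ask whether fluid from the ascending colon, where fermentation starts, acts as fluid from further down does. Of 28 members 13 were higher in vessel 1 than in vessels 2 to 4 and 0 were lower, against 19.3% of all genes that were higher and 15.4% that were lower. The median log2 difference was 0.20 for the members and 0.02 for all genes. By vessel the median level of the members was 7.63 in vessel 1, 7.08 in vessel 2, 7.14 in vessel 3 and 7.21 in vessel 4.

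GEN1 had the largest difference, 0.92 ± 0.15 (adjusted p = 0.00271), and it stood at 0.85 with 0%, 1.28 with 1% and 0.63 with 2%. BARD1 followed with 0.69 ± 0.07 (adjusted p = 0.000502), from 0.55 with 0%, 0.81 with 1% and 0.70 with 2%. For PALB2 the difference between vessel 1 and the later vessels was small without polydextrose and larger with it, at 0.19 with 0%, 0.71 with 1% and 0.79 with 2% (0.56 ± 0.12 over all, adjusted p = 0.00675). All 3 vessel 1 arrays of PALB2 and of ATR lay above all 9 later ones. ATR, which did not pass between concentrations, was at 9.15, 8.75, 8.70 and 8.56 with 0% fluid, 8.85, 8.52, 8.50 and 8.34 with 1% and 8.89, 8.50, 8.63 and 8.44 with 2%, a difference of 0.41 ± 0.06 (adjusted p = 0.00156).

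POLQ (0.65 ± 0.10), FANCG (0.54 ± 0.08), RMI2 (0.50 ± 0.11) and FANCI (0.44 ± 0.08) were also higher in vessel 1, each at all 3 concentrations, although another probe set of FANCI gave -0.42 without passing (adjusted p = 0.387). Smaller differences that passed were those of BLM (0.39), RAD51AP1 (0.32), CHEK1 (0.29), BRIP1 (0.27) and FANCL (0.22). BLM and BRIP1 differed little between vessels with 2% fluid, by 0.04 each, against 0.58 and 0.39 with 0%. FANCL was at 10.74, 10.37, 10.41 and 10.39 with 0% fluid, 10.29, 10.28, 10.25 and 10.14 with 1% and 10.44, 10.17, 10.20 and 10.26 with 2%, where the vessel 1 array with 0% fluid stood above the rest. CHEK2 did not pass (0.23 ± 0.11, adjusted p = 0.144), nor did EXO1, RAD50, NBN or the brightest probe set of BRCA1, and XRCC2 was the lowest at -0.49 (adjusted p = 0.157).

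ATR, BARD1, FANCG, FANCI, GEN1, PALB2, POLQ and RMI2 passed with each array left out in turn (adjusted p up to 0.049). Without vessel 1 of 0%, 8 members were higher and RAD51C was lower, beside 2099 higher and 1584 lower of 8709 genes. Without vessel 2 of 1%, XRCC2 was lower, and without vessel 1 of 2%, BRCA1 was higher (0.26, adjusted p = 0.0382). RAD51AP1 was lost without vessel 1 of 0% or of 2%. BLM was lost in 7 of the 12 fits (without vessels 1, 3 and 4 of 0%, 1, 2 and 4 of 1%, and 3 of 2%). BRIP1 was lost in 8 (any vessel of 0%, 1, 3 and 4 of 1%, and 2 of 2%), CHEK1 in 8 (1 to 3 of 0%, 4 of 1%, any of 2%) and FANCL in 9 (any of 0%, 4 of 1%, any of 2%), with adjusted p up to 0.2.

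Markers of dividing cells were higher in vessel 1 as well, all 10 of them, with a median difference of 1.07, and their part was not tested. The ACTB 3′ minus 5′ value also peaked in vessel 1. With it as a covariate, added after the data were seen, 3 members passed, ATR, BARD1 and CHEK1. Calls over all 8737 genes also dropped, from 1687 higher and 1348 lower to 204 and 227. The median of the 28 differences was then 0.28, and that of all genes 0.01.

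**Figure D3:**
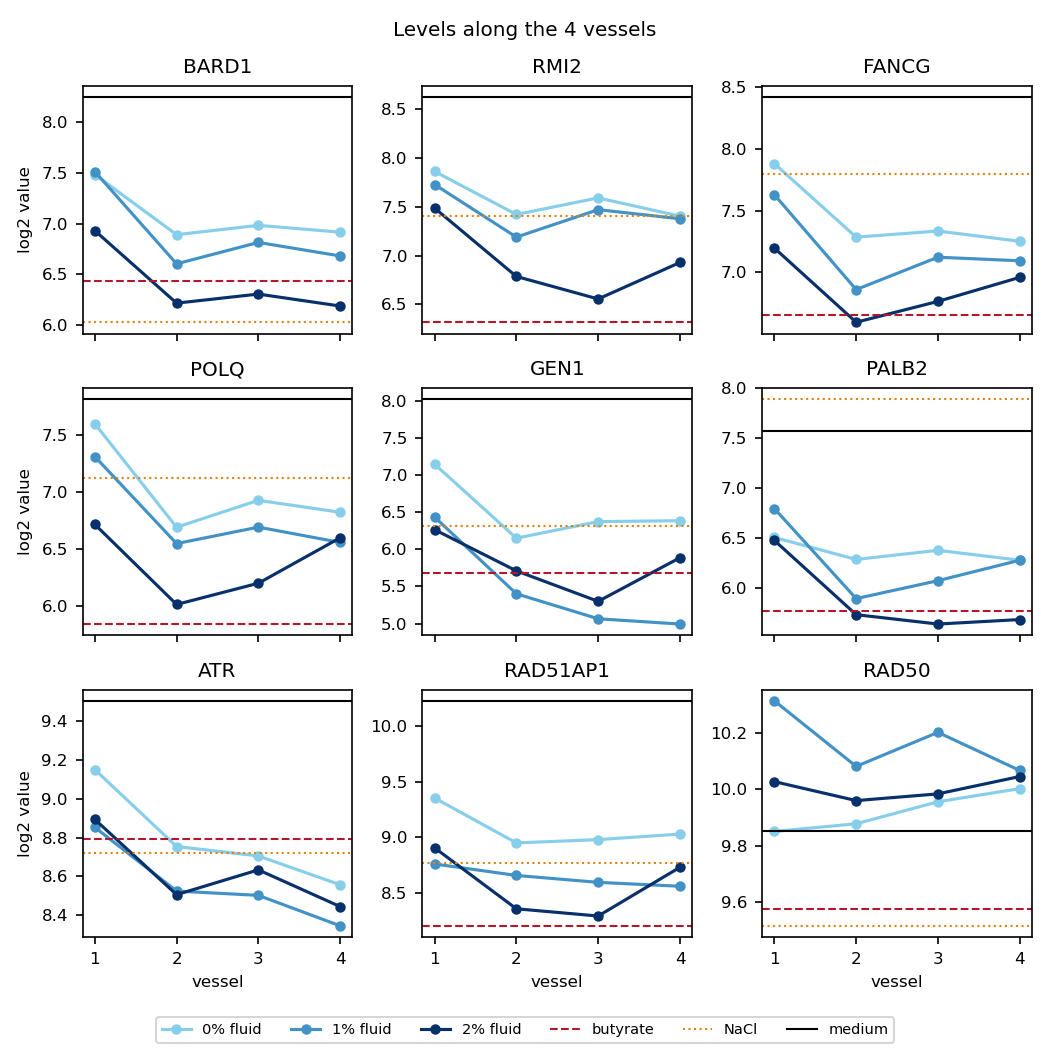
Log2 values of 9 repair genes are plotted against the vessel (1 ascending colon to 4 sigmoid colon and rectum), with a blue line of 4 arrays for each concentration and a horizontal line for the single butyrate, NaCl and medium arrays. Vessel 1 is highest for BARD1, FANCG, POLQ, GEN1 and PALB2 at each concentration, and the 2% line of BARD1 lies below the 0% line in each vessel, while RAD50 stays between 9.85 and 10.31 in the 12 arrays.

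Whether the change with concentration differed between the vessels was tested as a slope per 1% of polydextrose in vessels 2 to 4 minus that in vessel 1. No member passed in limma, against 1.17% of all genes. An unadjusted p under 0.05 was found for 3 of 28 members and for 1739 of 8737 genes. EXO1 had the largest difference in slope, 0.34 ± 0.10 (adjusted p = 0.115), falling more steeply in vessel 1, as BRCA1 did (0.23 ± 0.09, 0.199). PALB2 went the other way (-0.30 ± 0.11, 0.172). All 10 markers of dividing cells had a difference in slope below 0 (median -0.29), without passing, beside 53.8% of all genes below 0. The median of the 28 members was 0.07.

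The remaining comparisons set a treatment against the single medium array, so they have no test, and all share that array. A gene was compared where the brighter of the values reached log2 6, values under 5 were set to 5, and a difference of at least 1 (2-fold) was counted. CHEK2, at 5.95 in medium, was too dim on this rule and RAD54L was bright enough, so 28 members were compared here too. No member was 2-fold higher in any of the 4 comparisons.

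With butyrate 17 of 28 members were at least 2-fold lower, against 15.6% of all genes lower and 15.6% higher. The median of the members was -1.51. GEN1 was at 5.68 with butyrate, 6.32 with NaCl and 8.03 in medium, RMI2 at 6.32 with butyrate, 7.40 with NaCl and 8.62 in medium and CHEK1 at 7.57 with butyrate, 8.55 with NaCl and 9.61 in medium. These had the largest differences of butyrate from medium, at -2.35, -2.31 and -2.04. RAD51AP1 was at 8.20 with butyrate, 8.76 with NaCl and 10.23 in medium, BRIP1 at 5.97 with butyrate, 6.09 with NaCl and 7.98 in medium and POLQ at 5.84 with butyrate, 7.12 with NaCl and 7.82 in medium. In all 3 butyrate gave the lowest of 15 values. FANCG was at 6.65 with butyrate, 7.80 with NaCl and 8.42 in medium, FANCI at 8.35 with butyrate, 8.70 with NaCl and 9.94 in medium and MSH6 at 6.37 with butyrate, 6.87 with NaCl and 7.67 in medium. For MSH6 the difference was -1.30 with butyrate, and no other comparison with medium took it past 2-fold. BRCA1, which did not pass between concentrations, was at 7.28 with butyrate, 7.84 with NaCl and 9.05 in medium, and its difference from medium was -1.78 with butyrate. The other 11 members, ATM, ATR, EME1, FANCE, FANCF, FANCL, MUS81, NBN, RAD50, RAD51C and RAD54B, stayed within 2-fold of medium with butyrate.

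With 100 mM NaCl 15 of 28 members were at least 2-fold lower, against 7.67% of all genes lower and 8.93% higher, with a median of -1.04. EXO1 was at 7.12 with butyrate, 5.72 with NaCl and 8.89 in medium, BARD1 at 6.44 with butyrate, 6.03 with NaCl and 8.25 in medium and BLM at 5.96 with butyrate, 5.58 with NaCl and 7.56 in medium. All 3 were lower with NaCl than with butyrate, and EXO1 had the largest difference of any member in the 4 comparisons (-3.18). ATM was at 6.81 with butyrate, 5.77 with NaCl and 7.24 in medium, FANCE at 5.94 with butyrate, 4.96 with NaCl and 6.33 in medium and EME1 at 7.68 with butyrate, 7.03 with NaCl and 8.05 in medium. These 3 passed 2-fold with NaCl but differed from medium by less than 0.5 with butyrate. RMI1 was at 8.47 with butyrate, 8.39 with NaCl and 9.54 in medium and XRCC2 at 5.99 with butyrate, 5.97 with NaCl and 7.75 in medium, below medium by at least 2-fold with both.

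PALB2 behaved otherwise. It was at 5.78 with butyrate, 7.89 with NaCl and 7.57 in medium, so NaCl gave its highest and butyrate one of its lowest values. MUS81 was also above medium with NaCl, at 0.24, and FANCL differed by -0.02. ATR was at 8.79 with butyrate, 8.72 with NaCl and 9.51 in medium and FANCL at 10.15 with butyrate, 10.65 with NaCl and 10.67 in medium. RAD54L, a translocase of the strand exchange step, was at 4.07 with butyrate, 5.50 with NaCl and 6.42 in medium, so butyrate gave a difference of -1.42 or below, since 4.07 is under the limit.

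The 2 treatments also differed in the division markers. Of 10 markers 10 were at least 2-fold lower with butyrate (median difference from medium -2.35) and 1 with NaCl (median -0.25). Their median level was 8.12 with butyrate, 10.27 with NaCl and 10.41 in medium. Of 10 E2F and G1/S genes compared, 10 were lower with butyrate (median -1.74) and 6 with NaCl (median -1.73). These counts rest on 1 array for each treatment with no repeat, and the part of cell division in the lower repair genes was not tested.

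With 0% fluid 10 of 28 members were at least 2-fold lower, against 4.74% of all genes lower and 7.81% higher, with a median of -0.76. With 2% fluid 14 of 28 were, against 11.3% lower and 11.7% higher, with a median of -1.07. GEN1 differed from medium by -1.51 with 0% and -2.24 with 2% fluid, beside -2.35 with butyrate. BARD1 differed by -1.18 and -1.84, beside -1.81, and POLQ by -0.81 and -1.44, beside -1.98. XRCC2, whose fluid values lay near the limit, differed by -2.11 with 0% fluid and by -2.45 or below with 2%, where an array was under the limit. RAD50 and FANCF were at or above medium with both fluids, at 0.07 and 0.15 for RAD50 and 0.29 and 0.42 for FANCF.

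**Figure D4:**
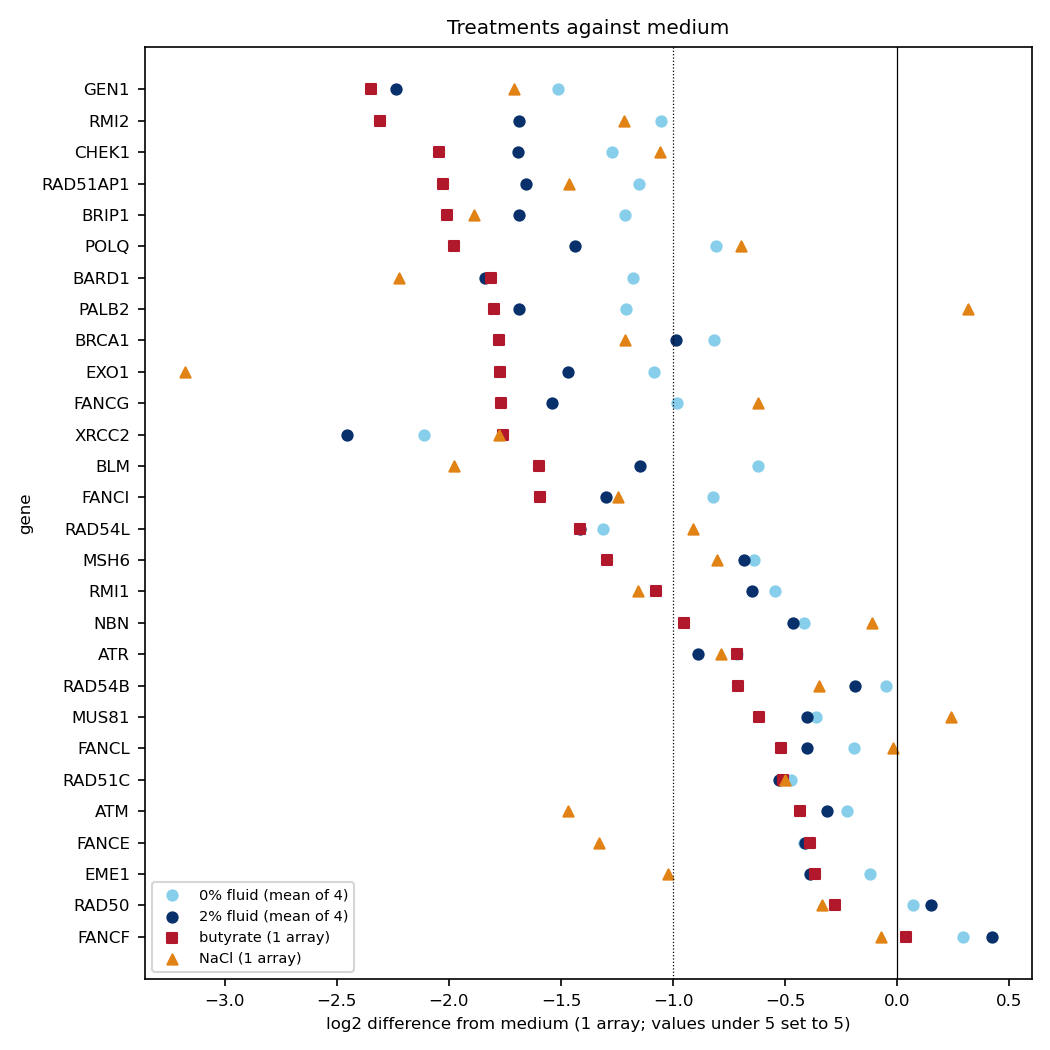
Points give the log2 difference from the single medium array for 28 repair genes, with circles for the mean of 4 arrays of 0% fluid (light) and 2% fluid (dark), squares for butyrate and triangles for NaCl; the dotted line marks 2-fold lower. Butyrate lies past that line for 17 genes and NaCl for 15, with EXO1 at -3.18 and PALB2 at 0.31 as the NaCl extremes.

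The scaling of the arrays matters for these single comparisons. With every array centred on its median, the median of all genes was -0.23 for butyrate, -0.19 for 0% fluid and -0.19 for 2% fluid, and that of the members -1.55, -0.93 and -1.11. All genes then split into 954 higher and 1681 lower with butyrate (1258 and 1253 as deposited), 459 and 638 with 0% fluid (611 and 371), and 740 and 1206 with 2% fluid (931 and 895). Against the NaCl array in place of medium, 6 of 24 members passed 2-fold with butyrate, beside 1298 higher and 1389 lower of 8153 genes. With 0% fluid 5 of 25 members passed, 4 of them higher, beside 881 higher and 788 lower of 7994 genes. With 2% fluid 3 of 25 members passed, beside 1053 higher and 1113 lower of 8062 genes.

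Other repair genes were listed by pathway, and their counts stand beside the 11.2% of all genes that fell and the 9.65% that rose between 2% and 0% fluid. Of 19 further genes of recombination and the Fanconi pathway 3 fell with 2% against 0% fluid and 0 rose (median -0.12). They were the ubiquitin-conjugating enzyme UBE2T (-0.45, adjusted p = 0.00718), which works with FANCL, the deubiquitinase USP1 (-0.36, adjusted p = 0.0191) and the ligase RFWD3 (-0.57, adjusted p = 0.0421). Of 19 genes of damage signalling 5 fell and 1 rose. Among them were the checkpoint kinase WEE1 (-0.86), the histone variant H2AX (-0.66), the ATR activator TOPBP1 (-0.40) and the phosphatase CDC25C (-1.21), all with an adjusted p of at most 0.00599.

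Other repair pathways do not depend on a sister chromatid. For base excision repair and translesion synthesis the share that fell was near that of all genes (11.2%). So was that of the further recombination and Fanconi genes. For nonhomologous end joining, with 8 genes, the share was above that of all genes, as it was for the 19 genes of damage signalling. Of 8 genes of nonhomologous end joining 3 fell in limma. They were the Ku subunits XRCC6 (-0.26, adjusted p = 0.0268) and XRCC5 (-0.21, 0.0499) and the end-protection factor RIF1 (-0.30, 0.0472). Of 15 genes of base excision repair 2 fell, FEN1 (-0.55) and APEX1 (-0.33), and POLB rose (0.30). In translesion synthesis 1 of 7 fell, PRIMPOL (-0.42), and 1 rose, POLK (0.21). None of 13 genes of nucleotide excision repair and none of the 3 other mismatch repair genes passed, among them XPC (0.16) and MSH3 (0.02). Of 10 E2F and G1/S genes 7 fell (median -0.46), including the E2F factors E2F7 (-0.74) and E2F3 (-0.82), RBL1 (-0.75) and CDC6 (-0.40).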

How the data were processed

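Gene expression was measured on 15 Affymetrix arrays of 54675 probe sets, 1 per treatment. The deposited log2 values were normalized by the authors with GCRMA, per the submitters' processing notes; no version and no genome build are given in the sources used here, and the log2 scale was read from the values (0.1729 to 14.4575). A total of 41097 probe sets carry 1 gene symbol, 1801 several and 11777 none in the platform annotation, and the probe set with the highest mean stood for each gene.

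The members and gene lists were chosen with earlier results of these data known. Genes at log2 5 or more in at least 4 of 12 fluid arrays (8737) entered a fit in limma 3.58.1 (R 4.3.3) on concentration plus vessel, with 6 residual degrees of freedom, two-sided, with Benjamini-Hochberg adjustment over all of them and a threshold of 0.05. The fit was tested on data simulated from the same model with independent noise, which cannot show whether that model suits these arrays. Values of every array are given for members past the threshold with a size of at least 0.5, past it in another comparison, or past 2-fold against medium; up to 4 genes with the smallest p are named from each other list. The vessel numbers pair the arrays, since the labels make a number 1 site of the colon; deviations of same-vessel arrays had a median correlation of 0.376 over 12 pairs (0.024 to 0.781). Alternatives changed the filter, scaling, weights, probe sets, arrays left out and block. The number of arrays limits the precision.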

Additional observations from a re-analysis of the deposited data

Results flagged for a closer look

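In groups of 4 arrays of 1 concentration, 10 of 87 sets of values had 1 array set apart from the other three, where chance flags about 1 in 20, and genes on 1 array are not independent. Of the member flags 6 were in vessel 1. With 2% fluid, BARD1 was at 6.93 in vessel 1 against 6.19 to 6.31 in the other vessels, PALB2 at 6.48 against 5.64 to 5.74, and RAD51C low, at 8.70 against 8.96 to 9.00. With 0% fluid, BARD1 was at 7.49 in vessel 1 against 6.89 to 6.98, FANCG at 7.88 against 7.25 to 7.33, and FANCL at 10.74 against 10.37 to 10.41. The ACTB 3′ minus 5′ value was also set apart in vessel 1 with 2% fluid, at 0.62 against 0.547 to 0.5515.

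In vessel 3 with 2% fluid, CHEK2 was low at 4.96 against 5.25 to 5.28 in the other vessels, and NBN at 9.04 against 9.29 to 9.32. In vessel 4 with 1% fluid, CHEK1 was low at 7.99 against 8.13 to 8.16.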

How the results depend on the processing

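With no replicate block 0 members passed in limma between 2% and 0%, between 1% and 0% or between vessel 1 and the later vessels. At an unadjusted p under 0.05 there were 13, 8 and 8 members, beside 1952, 1125 and 3157 of 8737 genes. With no replicate block and without vessel 1, a setting added after the data were seen, 13 passed between 2% and 0%, with the 12 genes that fell with the block among them, 2 between 1% and 0%, both kept, and 2 between 2% and 1%. With each array left out in turn, 7 to 13 passed between 2% and 0%, 0 to 3 between 1% and 0%, 0 to 4 between 2% and 1%, and 9 to 13 between vessel 1 and the others. Between 1% and 0%, 1 passed with no filter, 6 with array weights, 1 without vessel 1 and 0 with only the 8 arrays compared. Between 2% and 1%, 4 passed with array weights, 1 without vessel 1 and 1 with only the 8 arrays compared. Between vessel 1 and the others, 8 passed with array weights, 1 as a linear trend along the vessels and 3 with the ACTB covariate. With a limit of 1.5-fold, 17 of 28 members passed for 0% fluid against medium, beside 1283 higher and 1180 lower of 7820 genes. With the NaCl array as the control in place of medium, 6 of 24 members passed for butyrate. For 0% fluid 5 of 25 passed and for 2% fluid 3 of 25. With that control BARD1 (0.41), EXO1 (1.40) and RMI1 (0.079) turned positive with butyrate. So did BARD1 (1.04), RAD51AP1 (0.31), EXO1 (2.09), RMI2 (0.17), GEN1 (0.20) and BRIP1 (0.67) with 0% fluid. With 2% fluid BARD1 (0.38), EXO1 (1.71), BLM (0.83) and BRIP1 (0.20) turned positive. One other probe set of FANCI turned its vessel difference to -0.42 (adjusted p = 0.387). The cause was not tested.

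Counts over all genes moved too. Between 2% and 0%, 977 fell and 843 rose, against 2098 and 1813 with array weights, 1706 and 1455 without vessel 1, 454 and 409 with only the 8 arrays, 0 with no replicate block (1952 unadjusted), 1787 and 1515 with no block and without vessel 1, and 361 to 1697 and 297 to 1350 with 1 array left out. Between 1% and 0%, 188 fell and 230 rose, against 107 and 151 with no filter, 290 and 326 with a robust trend, 849 and 839 with array weights, 530 and 579 without vessel 1, 1 and 0 with 8 arrays, 624 and 672 with no block and without vessel 1, and up to 602 and 576 with 1 array left out. Between 2% and 1%, 0 passed, against 325 and 235 with array weights, 116 and 41 without vessel 1, 43 and 18 with 8 arrays, 162 and 77 with no block and without vessel 1, and up to 376 and 204 with 1 array left out. In vessel 1, 1687 were higher and 1348 lower, against 197 and 147 as a linear trend, 204 and 227 with the ACTB covariate, 0 with no block (3157 unadjusted), and 828 to 2099 and 818 to 1584 with 1 array left out. For the slope, 30 were higher and 72 lower, against 91 and 254 with a robust trend, 0 and 4 with array weights, 114 and 240 with the ACTB covariate, 0 with a linear vessel number (949 unadjusted), and up to 130 and 253 with 1 array left out. Signal over background limits XRCC2, CHEK2, GEN1 and RAD54L, which came near or under log2 5.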
